A study of Mus musculus with 6 samples.

Results

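Integrin subunits, laminin chains and the genes that join them to the keratinocyte skeleton were compared between cancer stem cells of wild-type (WT) and Sfrp1-/- (Sfrp1_KO) mice. The group was set by gene name: the integrin α and β subunits, the laminin chains, the nidogens Nid1 and Nid2, perlecan (Hspg2), the plakins Dst and Plec, and the kindlins Fermt1, Fermt2 and Fermt3. It held 43 of the 30142 genes measured on the array, namely 17 α subunits, 8 β subunits, 10 laminin chains and 8 others, each read from 1 array feature. Itga1 shares its feature with Pelo and was not analysed here. The rule uses gene names and no measured value, but the gene group was picked with earlier results of these arrays known.

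All mice, WT and Sfrp1_KO alike, had been given the carcinogen DMBA on postnatal days 23, 25 and 27 and then the tumour promoter TPA 2 times a week for 30 to 40 weeks, and the cells came from squamous cell carcinomas of the skin. Sfrp1 encodes a secreted antagonist of Wnt signalling. Cells free of lineage markers that carried Epcam, CD34 and α6 integrin, the product of Itga6, were sorted, and total RNA of 3 WT and 3 Sfrp1_KO samples was hybridised to an Affymetrix MTA 1.0 array each. The labels give neither strain nor sex, neither the deleted part of Sfrp1 nor whether a sample is 1 tumour or a pool. Nothing in the labels says that samples of a genotype came from separate mice, so each p-value reflects only how these samples spread, and that spread may be partly technical.

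Integrins are pairs of an α and a β subunit that bind matrix outside the cell and the skeleton inside it. In basal keratinocytes, α6β4 integrin binds laminin under the cell. Through plectin and the epithelial BPAG1 protein encoded by Dst, it holds keratin filaments in hemidesmosomes. α3β1 binds the same laminin in focal contacts, and kindlins are adaptors that bind β tails and, with talin, switch integrins on. Laminins are trimers of an α, a β and a γ chain; a trimer with α3 and β3 chains anchors epidermis, trimers with β1 and γ1 are common in other basement membranes, and nidogens and perlecan link laminin to collagen IV.

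Values are log2 signals as deposited, called log2 units here. The highest is 19.93, above the limit of 16 for a scanner with 16 bits, so an unstated step altered the scale. Differences are therefore not converted to folds, and levels of different genes are not compared. Changes of members were set against each other only in pairs, in deposited units. What the altered scale does to such a comparison was not tested. Differences are Sfrp1_KO minus WT with the standard error (SE) of the limma fit, and a gene was called where its limma p, adjusted by Benjamini-Hochberg over all 30142 genes, was under 0.05. The background level of an array was its highest of 23 background probe sets, between 4.82 and 5.10. Between 33.2% and 42.5% of genes lay above it on an array. The targeted gene, Sfrp1, was lower on every Sfrp1_KO array than on any WT array but was not called (5.75 against 5.12, adjusted p = 0.0969). Basal keratinocyte markers were low on the Sfrp1_KO arrays: 9 of 11 fell, beside 1.45% of all genes. Epcam, on which cells were sorted, was above the background level on 1 of 3 Sfrp1_KO arrays (5.03 ± 0.17, SD, n = 3). Cd34, also a marker of the sort, was high on all arrays and not called (9.42 ± 0.15 in WT and 10.99 ± 0.71 in Sfrp1_KO, limma adjusted p = 0.0714). Vim, encoding the mesenchymal filament protein vimentin, rose from 5.38 to 11.19 (difference 5.80, adjusted p = 0.00205). In RNA of sorted populations, fewer cells of a type and less RNA per cell cannot be told apart.

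Members moved in both directions. In Sfrp1_KO cells 6 rose (Nid1, Fermt2, Itgb3, Itgb5, Lamc1 and Itga10) and 5 fell (Itga3, Lama3, Itga6, Fermt1 and Itgb6), which is 25.6% of the 43, and 32 were not called. Over all genes 3.28% were called, 1.83% higher and 1.45% lower. The arrays of the genotypes did not overlap for 21 members, 13 higher and 8 lower in Sfrp1_KO; over all genes this held for 19.9%, 9.1% higher and 10.8% lower. Of the 13710 genes above background on some array 6.97% were called, 3.86% higher and 3.11% lower, and 30.6% had arrays that did not overlap, 13.5% higher and 17.1% lower. A gene can enter that set through the genotype in which it is high, so these shares describe the array and are no test of the members. The median difference of the members was 0.02 and that of all genes -0.01. At or under background on every array were 17 members. Calls of Nid1, Fermt2 and Itgb3 stood without any 1 array; each of the other 8 was lost without at least 1 array, as given below.

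**Figure D1:**
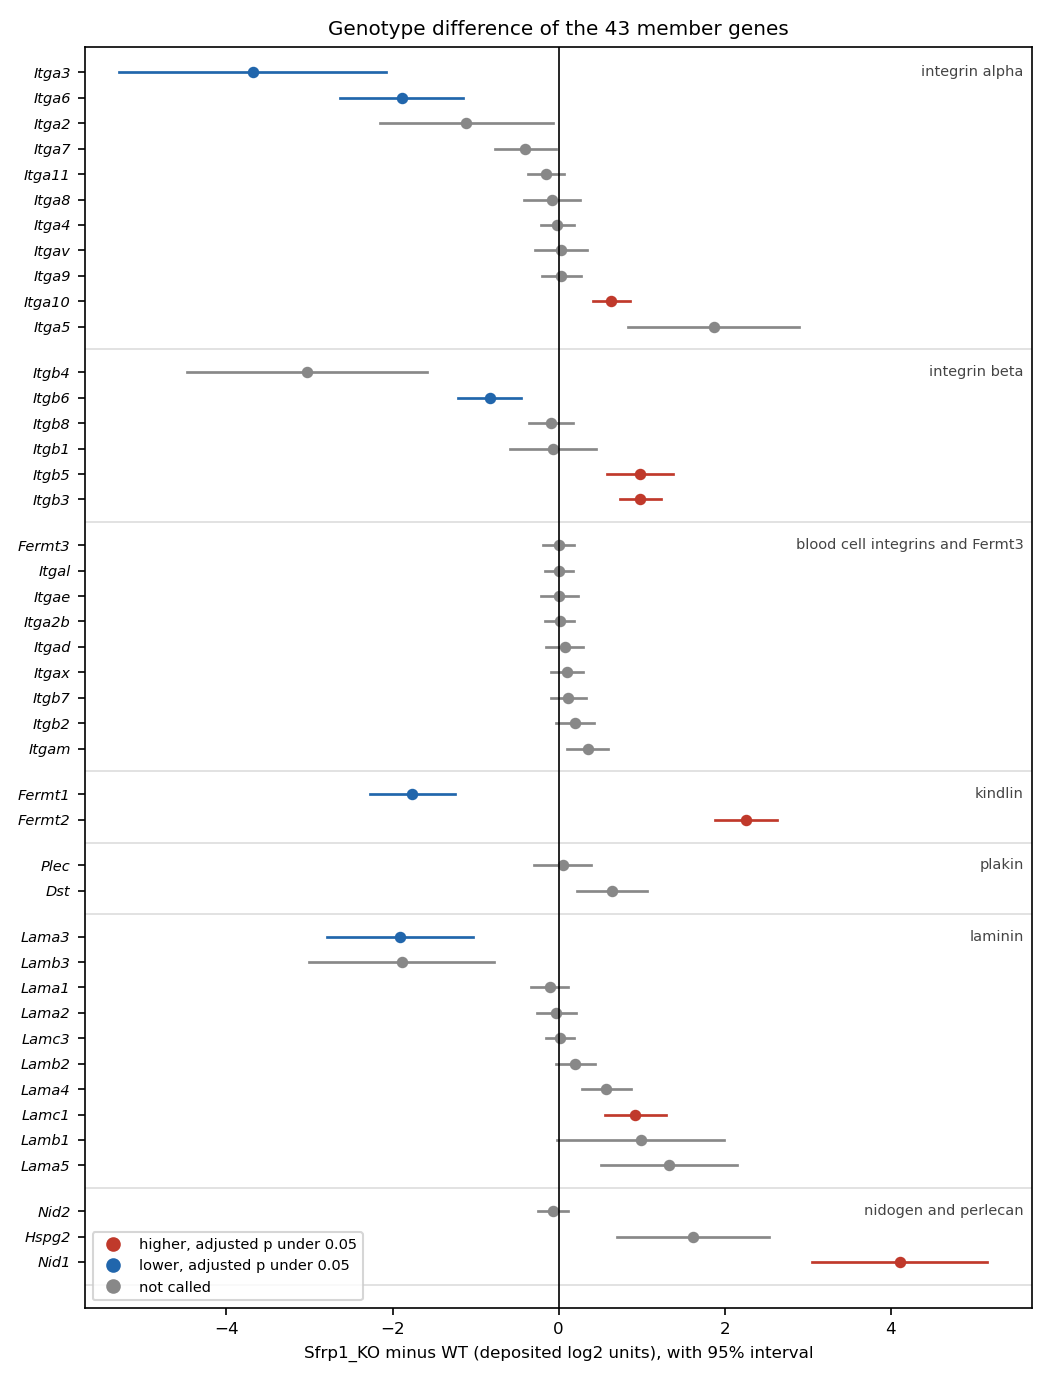
Difference of each of the 43 genes, Sfrp1_KO minus WT in deposited log2 units (x axis), with its 95% interval from limma; genes are grouped by role, and red and blue mark genes called higher and lower. Itga3 at -3.69 and Nid1 at 4.11 lie farthest apart, and blood cell integrins lie near 0. Itgb3, Itga10 and Lama4 in WT and Itgb6 and Lamb3 in Sfrp1_KO lay at or under background on every array of that genotype, so their true differences have only a lower bound.

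Of the integrin subunits by which keratinocytes hold laminin, Itga6 and Itga3 fell in Sfrp1_KO cells, and Itgb4 and Itgb1 were not called. Itga6, the α subunit of hemidesmosomes and a marker of the sort, read 10.22, 9.30 and 9.0 in WT replicates 1, 2 and 3 and 7.56, 7.82 and 7.47 in Sfrp1_KO replicates 1, 2 and 3. All Sfrp1_KO arrays lay below all WT arrays, yet well above background. Itga6 fell by 1.89 (SE 0.31, adjusted p = 0.0292). Itga3, the α subunit that pairs with β1 on laminin, read 11.21, 9.59 and 8.30 in WT and 6.14, 6.06 and 5.84 in Sfrp1_KO. Its WT arrays spread over almost 3 log2 units, with replicate 1 highest, while the Sfrp1_KO arrays lay close together. It fell by 3.69 (SE 0.67, adjusted p = 0.0414). Itgb4, the β subunit that pairs with α6 in hemidesmosomes, read 10.97, 9.31 and 8.41 in WT and 6.63, 6.65 and 6.33 in Sfrp1_KO. Its arrays did not overlap, and its difference of -3.03 (SE 0.60, 95% interval -4.47 to -1.59) just missed the threshold (adjusted p = 0.0544). Itgb4 was called without WT replicate 1 (-2.33, adjusted p = 0.0229) or WT replicate 3 (-3.60, 0.0335), and when genes at background were left out (limma adjusted p = 0.0373) or arrays were quantile normalized once more (limma adjusted p = 0.0221). Leaving out WT replicate 2 or any 1 Sfrp1_KO array ended the calls of Itga6 (adjusted p = 0.0650 to 0.111) and Itga3 (0.104 to 0.161). Without each of these same arrays Itgb4 was not called either (limma adjusted p = 0.115 to 0.189).

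Itgb1, the β subunit shared by most matrix-binding integrins, was not called. It read 9.17, 8.62 and 8.30 in WT and 8.59, 8.67 and 8.62 in Sfrp1_KO, and the Sfrp1_KO arrays lay inside the range of the WT arrays. The difference was -0.07 (SE 0.21, 95% interval -0.58 to 0.45, adjusted p = 0.963), and its sign turned after a further quantile normalization (0.05), with array weights (0.02) and without WT replicate 1 (0.17). The change of Itgb4 differed from that of Itgb1 by -2.96 deposited log2 units within arrays. Itgb4 minus Itgb1 went from 0.87 ± 0.85 to -2.09 ± 0.18 (SD, n = 3), without overlap. By a 2-sided exact permutation test p was 0.1, and 0.1 after adjustment over the 4 pairs of members compared in this way; with 3 arrays a side no smaller p is possible.

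The plakins on the inner side of the hemidesmosome were not called. Plec, encoding plectin, read 7.20, 6.90 and 6.68 in WT and 6.97, 7.07 and 6.88 in Sfrp1_KO. These ranges overlapped, with a difference of 0.05 (SE 0.14, adjusted p = 0.959). Its sign turned without WT replicate 3 (-0.08) and it was near 0 without Sfrp1_KO replicate 2. Dst read 5.85, 5.54 and 5.75 in WT and 6.15, 6.73 and 6.20 in Sfrp1_KO, each Sfrp1_KO array above each WT array, and was not called (0.64, SE 0.18, adjusted p = 0.139). Dst makes epithelial, muscle and neuronal proteins from 1 gene, and the feature does not separate them. In deposited units the difference of Itga6 was smaller than that of its partner Itgb4. Itga6 minus Itgb4 went from -0.06 ± 0.67 to 1.08 ± 0.12 (SD, n = 3), an unequal change of 1.14. The exact permutation test gave p = 0.1. Cells were sorted on α6 integrin, the product of Itga6, and the part of the sort in this value was not tested.

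**Figure D2:**
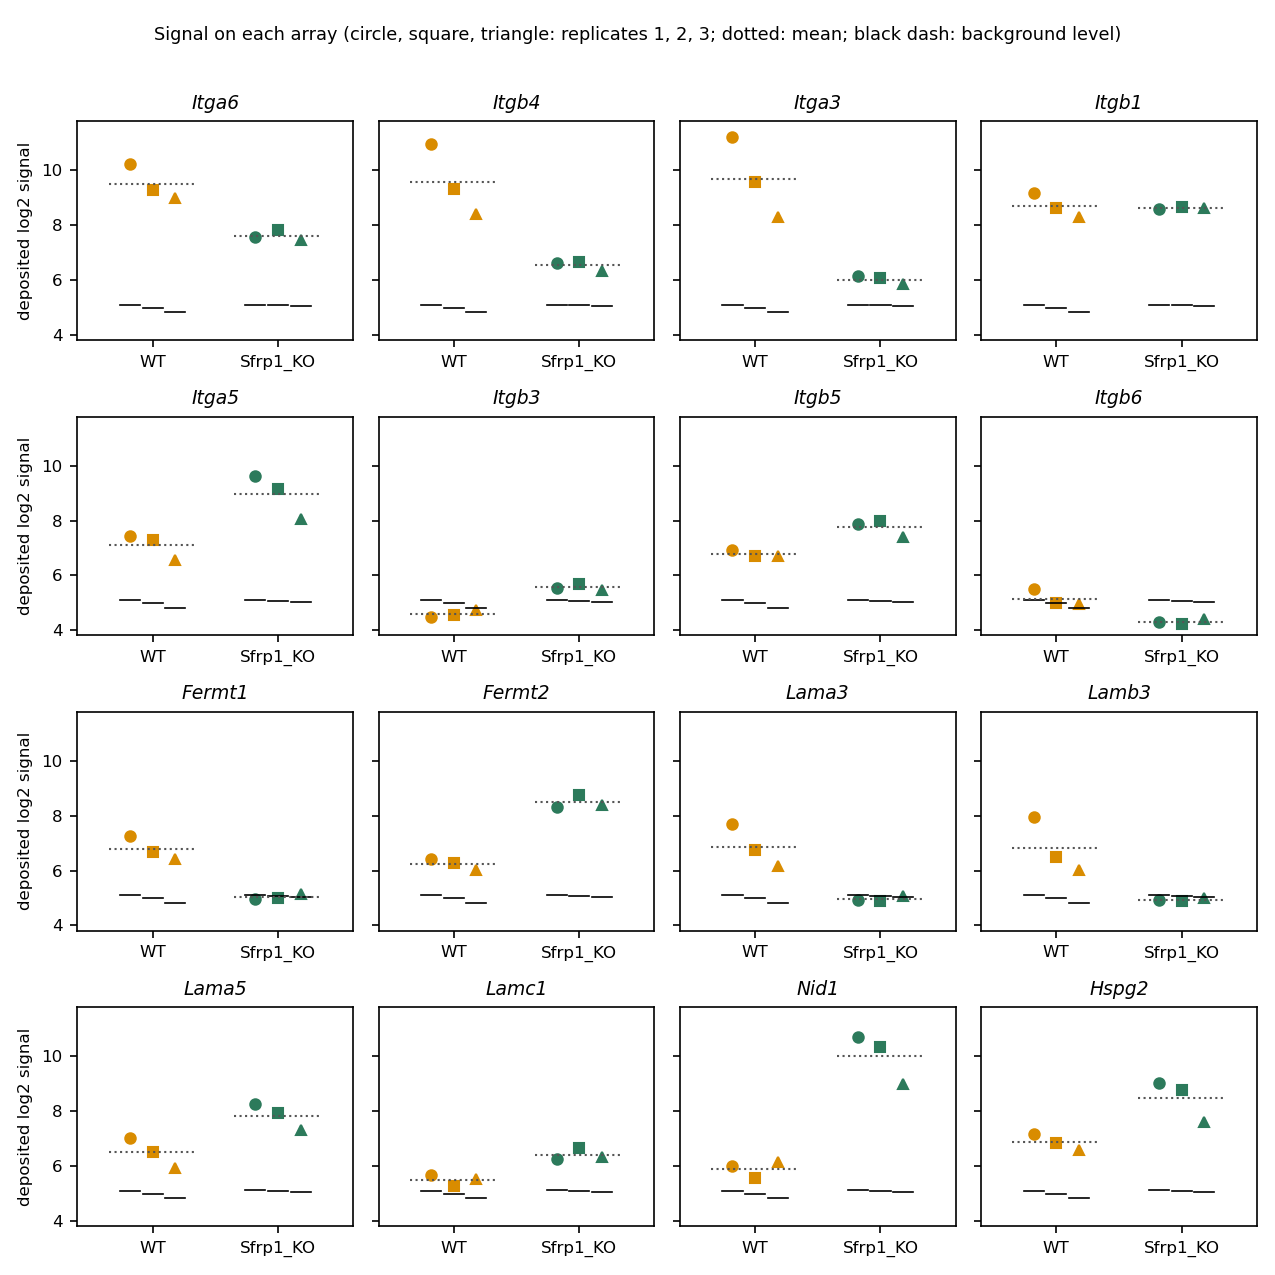
Deposited log2 signal (y axis) of 16 members on each of the 6 arrays; orange points are WT and green points Sfrp1_KO, circles, squares and triangles are replicates 1, 2 and 3, dotted lines are genotype means and black dashes the background level of each array. Itga6, Itgb4 and Itga3 are lower and Nid1 and Fermt2 higher on every Sfrp1_KO array, Itgb1 overlaps, and Fermt1, Lama3 and Lamb3 reach the background level in Sfrp1_KO.

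The β subunits that pair with αv split. Itgb3, whose αvβ3 pair binds vitronectin and fibronectin, read 4.48, 4.54 and 4.71 in WT, all under background, and 5.55, 5.68 and 5.46 in Sfrp1_KO, all above it. It rose by at least 0.60 (measured difference 0.98, SE 0.10, limma adjusted p = 0.00763). Itgb5, of the vitronectin receptor αvβ5, read 6.93, 6.70 and 6.69 in WT and 7.87, 7.99 and 7.41 in Sfrp1_KO and rose by 0.98 (SE 0.17, adjusted p = 0.0341). Sfrp1_KO replicate 3 was the lowest of its genotype for both genes. Itgb6, of the epithelial integrin αvβ6 that frees TGF-β from its latent form, went the other way, with 5.48, 4.98 and 4.96 in WT and 4.31, 4.22 and 4.40 in Sfrp1_KO. Of the WT arrays 2 were just above background and of the Sfrp1_KO arrays none, so the fall is at least 0.07 (measured difference -0.83, SE 0.16, limma adjusted p = 0.0457). Itgav itself, their common α subunit, read 6.34, 6.26 and 6.06 in WT and 6.20, 6.47 and 6.08 in Sfrp1_KO, overlapping, with a difference of 0.03 (SE 0.13, adjusted p = 0.977; -0.05 without WT replicate 3 and -0.08 without Sfrp1_KO replicate 2). Itgb8, the last β partner of αv, was under background on every array. Itgb5 was called with 1 array left out only when that was Sfrp1_KO replicate 3 (1.15, adjusted p = 0.0144; 0.0586 to 0.133 without each of the others) and missed the threshold with trend and robust options (limma adjusted p = 0.0553). Itgb6 was called only without WT replicate 1 (adjusted p = 0.0333), and not without each of the others (0.0729 to 0.188).

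Among α subunits that bind fibronectin or collagen, Itga10 rose and the others were not called. Itga5, which with β1 forms the main fibronectin receptor, read 7.43, 7.30 and 6.55 in WT and 9.64, 9.15 and 8.07 in Sfrp1_KO. The genotypes did not overlap, and Sfrp1_KO replicate 3 lay nearest to WT. The difference of 1.87 (SE 0.43, 95% interval 0.83 to 2.90) was not called (adjusted p = 0.0865). Without Sfrp1_KO replicate 3 Itga5 was called (2.31, adjusted p = 0.0318), and so it was by limma after a further quantile normalization (1.92, 0.0288) or array weighting (2.24, 0.0354). Itga10, a collagen receptor known from cartilage, read 4.57, 4.66 and 4.66 in WT, under background, and 5.17, 5.41 and 5.20 in Sfrp1_KO, just above it. It rose by at least 0.30 (measured difference 0.63, SE 0.09, limma adjusted p = 0.0215) and was not called without any 1 of the 6 arrays (adjusted p = 0.0546 to 0.0783). Itga2, the collagen receptor subunit of keratinocytes, read 6.60, 7.46 and 5.68 in WT and 5.78, 5.45 and 5.17 in Sfrp1_KO; the groups overlapped, and the difference of -1.11 (SE 0.43) was not called (adjusted p = 0.309). Of the remaining α subunits outside blood cells, Itga7, a laminin receptor of muscle, was above background on 1 WT array (-0.40, SE 0.15, adjusted p = 0.296), and Itga4, Itga8, Itga9 and Itga11 were under it on all 6 arrays, with differences between -0.15 and 0.03.

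Integrins of blood cells were near background in both genotypes. Itgb2, the β subunit of all leukocyte β2 integrins, read 4.32, 4.43 and 4.35 in WT and 4.69, 4.56 and 4.43 in Sfrp1_KO, under background throughout (0.20, SE 0.09, adjusted p = 0.438). Its α partners Itgal, Itgam, Itgax and Itgad, the lymphocyte subunit Itgae, the platelet subunit Itga2b and the blood cell kindlin Fermt3 (4.39, 4.39 and 4.52 in WT, 4.48, 4.41 and 4.42 in Sfrp1_KO) were also under it on every array. Itgb7 lay close to it, at 5.10 ± 0.08 and 5.21 ± 0.09 (SD, n = 3). None of these 9 genes was called by limma, and 1 of them, Itgam, the α subunit of the complement receptor of macrophages, had an unadjusted p under 0.05 (4.27 ± 0.08 and 4.62 ± 0.14, difference 0.35, SE 0.10, adjusted p = 0.163). Of 19 leukocyte markers none was called, 7 were higher and 2 lower at an unadjusted p under 0.05, and their mean level lay between 4.66 and 4.81 in WT and between 4.77 and 5.11 in Sfrp1_KO. The share of all genes at an unadjusted p under 0.05 was not counted, for these or for later counts. Ptprc, which encodes CD45, was under background on every array, as were Csf1r and Adgre1. Lyz2, the lysozyme of myeloid cells, read 5.11, 4.69 and 5.02 in WT and 7.95, 6.84 and 5.96 in Sfrp1_KO (difference 1.98, limma adjusted p = 0.0941). C1qb, C1qa, Tyrobp and Laptm5, genes of macrophages and other leukocytes, were also higher on each Sfrp1_KO than on any WT array, by 1.3, 0.85, 0.95 and 0.75, without being called by limma (adjusted p = 0.125, 0.129, 0.199 and 0.10). S100a8 and S100a9, of neutrophils and of stressed keratinocytes, were lower on each Sfrp1_KO array (-1.59 and -1.54, limma adjusted p = 0.140 and 0.0991).

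The kindlins changed in opposite directions. Fermt1, the kindlin of epithelia, read 7.28, 6.68 and 6.43 in WT and 4.97, 5.0 and 5.14 in Sfrp1_KO, where only replicate 3 was above its background level. It fell by 1.76 (SE 0.21, adjusted p = 0.0115). Fermt2, the kindlin of most other tissues and of mesenchymal cells, read 6.41, 6.27 and 6.04 in WT and 8.32, 8.78 and 8.40 in Sfrp1_KO. No array of one genotype reached the range of the other, for either gene. Fermt2 rose by 2.26 (SE 0.16, adjusted p = 0.00205), with adjusted p from 0.00746 to 0.0121 when any 1 array was left out. Because Fermt1 lay around background in Sfrp1_KO, no difference between the kindlins within an array is given. Its call was lost when Sfrp1_KO replicate 1 (-1.73, adjusted p = 0.0565) or replicate 2 (-1.74, adjusted p = 0.0685) was left out of the fit for Fermt1.

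Promoters of called members are shown to set these genes side by side, since the kindlins, Itga3 and Nid1 moved far and in opposite directions. RefSeq promoters of build GRCm38.p6 matched 28 of the 43 genes, with 32 start sites. Printed are the 250 bases before the start, 5′ to 3′ on the strand of the gene, with matches to the searched motifs in capitals.
Fermt1 (chr2:132946037-132946286, minus strand): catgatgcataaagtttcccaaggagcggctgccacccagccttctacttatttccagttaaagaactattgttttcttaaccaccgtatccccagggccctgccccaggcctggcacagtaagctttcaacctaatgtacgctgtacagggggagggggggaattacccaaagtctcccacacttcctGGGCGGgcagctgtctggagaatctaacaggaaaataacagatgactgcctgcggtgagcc
Fermt2 (chr14:45530066-45530315, minus strand): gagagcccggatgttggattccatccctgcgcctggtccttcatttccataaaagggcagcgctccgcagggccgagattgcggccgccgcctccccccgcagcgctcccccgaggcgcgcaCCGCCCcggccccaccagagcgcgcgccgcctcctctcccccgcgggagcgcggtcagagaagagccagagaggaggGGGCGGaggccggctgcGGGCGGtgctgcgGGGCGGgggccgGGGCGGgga
Itga3, upstream start (chr11:95076715-95076964, minus strand): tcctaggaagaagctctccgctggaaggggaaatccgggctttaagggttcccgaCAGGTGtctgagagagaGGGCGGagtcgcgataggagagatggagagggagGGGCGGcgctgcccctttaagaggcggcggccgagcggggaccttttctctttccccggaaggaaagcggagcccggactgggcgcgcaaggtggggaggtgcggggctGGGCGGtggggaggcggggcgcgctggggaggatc
Nid1 (chr13:13437352-13437601, plus strand): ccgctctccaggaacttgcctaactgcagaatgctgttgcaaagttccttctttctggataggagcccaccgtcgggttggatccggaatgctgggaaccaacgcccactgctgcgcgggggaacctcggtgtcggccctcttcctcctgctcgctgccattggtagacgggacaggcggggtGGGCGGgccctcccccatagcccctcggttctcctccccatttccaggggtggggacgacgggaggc
Motifs were searched on both strands in the whole 300 bases from 250 before to 50 after each start: TGANTCA (AP-1), CAGGTG (a Snail-type E-box), GGGCGG (GC box) and ACATTCC (TEAD-type), whose letters can overlap only at their ends. The GC box stood in 17 of the 32 member promoters and in 35.7% of all 32851 promoters. The E-box letters stood in 11 of 32 and in 20.2% of all. Median GC content was 59.2% in member promoters and 52.7% in all promoters, and its part in these shares was not tested. The AP-1 letters stood in 3 member promoters (Itga9, Itgax and the inner start of Itga3) against 7.8% of all, and the TEAD-type letters in 1 (Lamb3) against 3.8%. In the 250 bases shown, Fermt2, which rose, holds 5 GC boxes at a GC content of 76.0%, and Nid1, which rose too, holds 1 at 64.4%. Itga3, which fell, holds 3 at 67.6% beside 1 E-box, and Fermt1, which fell too, holds 1 at 52.4%. The inner start of Itga3, not shown, holds 1 GC box at 50.8%. These promoters were picked because their genes moved far, and whether GC boxes bear on the changes was not tested. Capitals mark letters only, and nothing on binding was measured.

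Laminin chains differed in direction. Lama3, the α chain of the epidermal laminin, read 7.71, 6.73 and 6.17 in WT and 4.93, 4.90 and 5.05 in Sfrp1_KO, around background. It fell by 1.91 (SE 0.36, adjusted p = 0.0480). Its β partner Lamb3 read 7.95, 6.51 and 6.03 in WT and 4.94, 4.87 and 5.01 in Sfrp1_KO, under background on all 3 arrays. The 2 genes took the same order over the WT arrays, and for neither did the genotypes overlap. Lamb3 was lower by at least 1.76 (measured difference -1.89, SE 0.46) and was not called by limma (adjusted p = 0.103), except without WT replicate 1 (-1.33, adjusted p = 0.0229). The call of Lama3 ended when WT replicate 2 or any 1 Sfrp1_KO array was left out (adjusted p = 0.107 to 0.188).

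Chains of the laminins of other basement membranes either rose or were not called. Lamc1, the γ chain of most laminins, read 5.65, 5.27 and 5.52 in WT and 6.24, 6.66 and 6.31 in Sfrp1_KO and rose by 0.92 (SE 0.15, adjusted p = 0.0300). With 1 array left out it was called only when that was WT replicate 1 (1.01, adjusted p = 0.0473; 0.0729 to 0.0927 without each of the others). Lama5, the α chain of the laminin under most adult epithelia and vessels, read 7.03, 6.51 and 5.94 in WT and 8.26, 7.92 and 7.29 in Sfrp1_KO, without overlap, and was not called (1.33, SE 0.34, adjusted p = 0.117). Lama4, known from vessels and mesenchyme, was under background on all WT arrays and above it on 2 Sfrp1_KO arrays (4.62 ± 0.15 and 5.19 ± 0.17; at least 0.23, limma adjusted p = 0.0702). Both Lama5 (1.39, adjusted p = 0.0376) and Lama4 (0.61, adjusted p = 0.0344) were called by limma after a further quantile normalization, and Lama5 also under array weighting (1.63, 0.0406). Lamb1, the β chain that goes with γ1, read 8.06, 7.31 and 6.30 in WT and 8.19, 8.43 and 8.0 in Sfrp1_KO, overlapping, with a difference of 0.99 (SE 0.42, adjusted p = 0.360). Lamb2 differed by 0.20 (SE 0.10, adjusted p = 0.430), and Lama1, Lama2 and Lamc3 were under background throughout.

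The linkers of laminin to collagen IV held the largest rise. Nid1, encoding nidogen-1, read 6.01, 5.57 and 6.13 in WT and 10.70, 10.34 and 8.98 in Sfrp1_KO. It rose by 4.11 (SE 0.44, 95% interval 3.05 to 5.16, adjusted p = 0.00825), and with any 1 array left out by 3.76 to 4.62 (adjusted p = 0.0027 to 0.0484). Its relative Nid2 stayed under background on every array (4.01 ± 0.06 and 3.95 ± 0.04; SD, n = 3). Hspg2, encoding perlecan, a heparan sulfate proteoglycan of all basement membranes, read 7.15, 6.85 and 6.58 in WT and 9.04, 8.79 and 7.60 in Sfrp1_KO. Each Sfrp1_KO array lay above each WT array, with replicate 3 closest to them, and the difference of 1.61 (SE 0.38) was not called (adjusted p = 0.0922). Hspg2 was called by limma without Sfrp1_KO replicate 3 (2.05, adjusted p = 0.0127), after a further quantile normalization (1.66, 0.0285) and under array weighting (1.93, 0.0338).

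Spread differed with direction. WT replicate 1 was the highest and WT replicate 3 the lowest WT array for all 5 members that fell. Among the 6 that rose Sfrp1_KO replicate 2 was the highest Sfrp1_KO array for 5. Over all 43 members WT replicate 1 was the highest WT array for 19 and WT replicate 3 the lowest for 17. Sfrp1_KO replicate 2 was the highest of its genotype for 14 of them. The order of arrays was not counted over all genes. The SD was larger in WT than in Sfrp1_KO for 5 of 5 members that fell and for 1 of 6 that rose. Over all genes it was larger in WT for 17474 of 30142. Fermt1, Lama3 and Itgb6 lay at or around background in Sfrp1_KO, and Itgb3 and Itga10 under it in WT. Signal at background can hold an SD down, and genes of like level and direction were not compared. Leaving out Sfrp1_KO replicate 1 or replicate 2 left 3 members called higher and none lower by limma, although 8 and 7 were lower at an unadjusted p under 0.05; without Sfrp1_KO replicate 3 the counts were 6 and 1, and without WT replicates 1, 2 and 3 they were 4 and 7, 3 and 1, and 3 and 5.

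**Figure D3:**
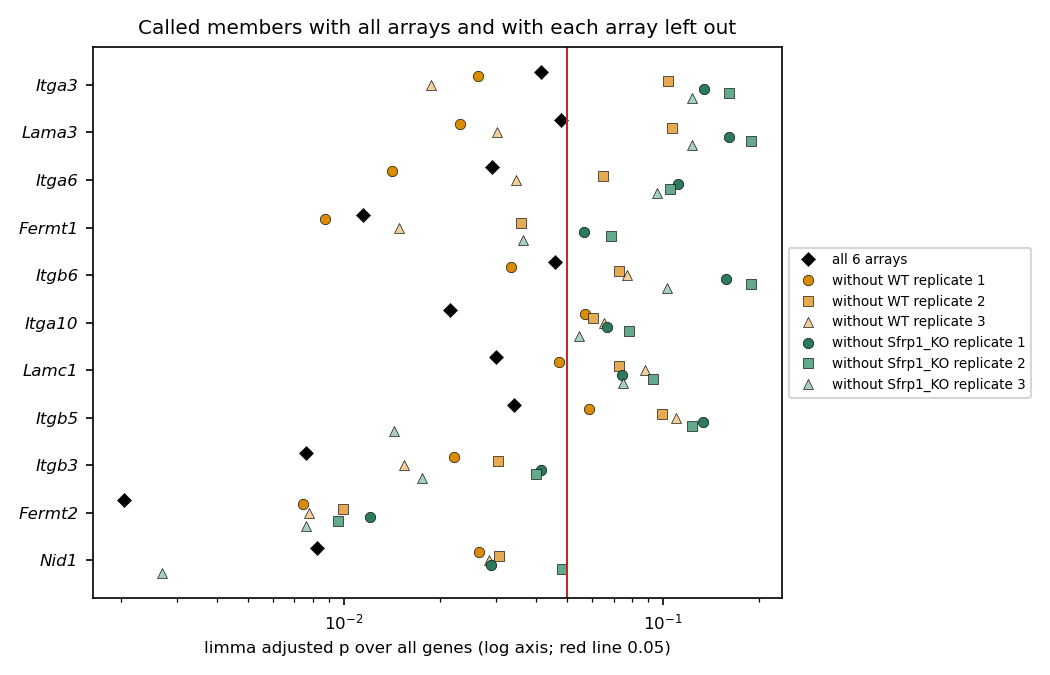
Limma adjusted p over all genes (x axis, logarithmic) of the 11 called members with all 6 arrays (black diamonds) and with each array left out (orange for WT, green for Sfrp1_KO); the red line is 0.05. Nid1, Fermt2 and Itgb3 stay left of the line with every array left out, while Itga10 crosses it whichever array is missing.

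Genes that work with these members were read from 4 lists. A list of hemidesmosome partners and keratin anchoring held 7 measured genes, among them the desmosome gene Dsp. Of these 5 fell and none rose, with a median of -2.27, beside 1.45% of all genes called lower and 1.83% higher. Col17a1, the transmembrane collagen of hemidesmosomes, read 8.65, 7.09 and 7.02 in WT and 5.29, 5.23 and 5.40 in Sfrp1_KO and fell by 2.27 (SE 0.43, adjusted p = 0.0457). Bcam, a laminin α5 receptor, fell by 2.14 (SE 0.30, adjusted p = 0.0185), and the keratins Krt5 and Krt14 that hemidesmosomes hold fell by 10.74 and 7.45. Dsp, whose product desmoplakin ties keratins to desmosomes, fell by 5.84. Cd151, a tetraspanin that binds α3β1 and α6β4, was not called (6.37 and 6.89, difference 0.52, adjusted p = 0.561), nor was Evpl, which was under background on every array. Col17a1 was called only without WT replicate 1 among the arrays left out (-1.74, adjusted p = 0.00338; 0.0658 to 0.182 otherwise), and Bcam lost its call when WT replicate 3 or any 1 Sfrp1_KO array was left out (0.0568 to 0.0922).

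Of 25 cytoplasmic adaptors of integrin adhesions 4 rose and 2 fell, with a median of 0.10, beside the same 1.83% and 1.45% of all genes. Tns4, a short tensin known from epithelial and tumour cells, read 10.56, 9.52 and 8.79 in WT and 4.86, 5.02 and 5.06 in Sfrp1_KO, around background, and fell by 4.64 (SE 0.41). The longer tensins Tns1 and Tns2, which bind actin as well as β tails, rose by 0.77 (SE 0.14) and 1.65 (SE 0.19). Parvb, of the complex of integrin-linked kinase, PINCH and parvin, rose by 1.56 (SE 0.14), and Lims1, which encodes PINCH1, by 0.49 (SE 0.08). Its relative Parva was higher on each Sfrp1_KO array and not called (0.96, SE 0.29), except without Sfrp1_KO replicate 3 (1.31, adjusted p = 0.00647) and after a further quantile normalization (1.04, limma adjusted p = 0.0497); Zyx was called without Sfrp1_KO replicate 3 alone (0.76, adjusted p = 0.0369). Ptk2b, the kinase PYK2, fell by 1.20 (SE 0.21). Parvb and Tns4 kept their calls without any 1 array. Tns2 lost its call without Sfrp1_KO replicate 2 (adjusted p = 0.0560), and Tns1, Lims1 and Ptk2b were each lost without any 1 Sfrp1_KO array and without WT replicate 2 (adjusted p = 0.0648 to 0.169), besides Tns1 without WT replicate 1 (0.0668) and Lims1 and Ptk2b without WT replicate 3 (0.0910 and 0.0727). With trend and robust options Lims1 was not called either (limma adjusted p = 0.145).

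Among matrix ligands the fibronectin gene Fn1, whose product Itga5 with Itgb1 binds, read 8.08, 9.35 and 8.0 in WT and 14.58, 14.56 and 12.75 in Sfrp1_KO and rose by 5.49 (SE 0.59, adjusted p = 0.00841). Thbs2, encoding thrombospondin-2, rose by 2.04 (SE 0.24), and Tgfb2, encoding a form of TGF-β, rose by 1.01 (SE 0.14). Tnc, encoding tenascin C, fell by at least 3.09, and Cdh1, encoding E-cadherin, the ligand of αEβ7, by 4.38 (SE 0.13). These 3 rises and 2 falls were of 26 ligand genes, 19.2% against 3.28% of all genes, with a median of 0.04. Vcam1, a ligand of α4β1, and Adam9 were higher on every Sfrp1_KO array and not called (1.54, adjusted p = 0.0699, and 0.64, adjusted p = 0.0777); both were called by limma after a further quantile normalization (adjusted p = 0.0469 and 0.0294) and with array weights (0.0290 and 0.0368), and Vcam1 also without Sfrp1_KO replicate 3 (1.94, adjusted p = 0.00565), with dim genes left out (limma adjusted p = 0.0485) and with trend and robust options (limma adjusted p = 0.0453). Tnc lost its call when Sfrp1_KO replicate 1 or 2 was left out (adjusted p = 0.0565 and 0.0684), nor Tgfb2 without Sfrp1_KO replicate 1 or any 1 WT array (0.0522 to 0.0710). Of 23 other basement membrane genes only Fbln1, encoding fibulin-1, passed, with a fall of at least 0.78, which makes 4.35% called against 3.28% of all genes; the median was -0.03. Agrn and Col18a1 were lower on every Sfrp1_KO array and not called (-1.43, adjusted p = 0.0947, and -0.99, adjusted p = 0.123), while Agrn was called without WT replicate 3 (-1.82, adjusted p = 0.0177) and Col18a1 after a further quantile normalization (limma adjusted p = 0.0359).

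**Figure D4:**
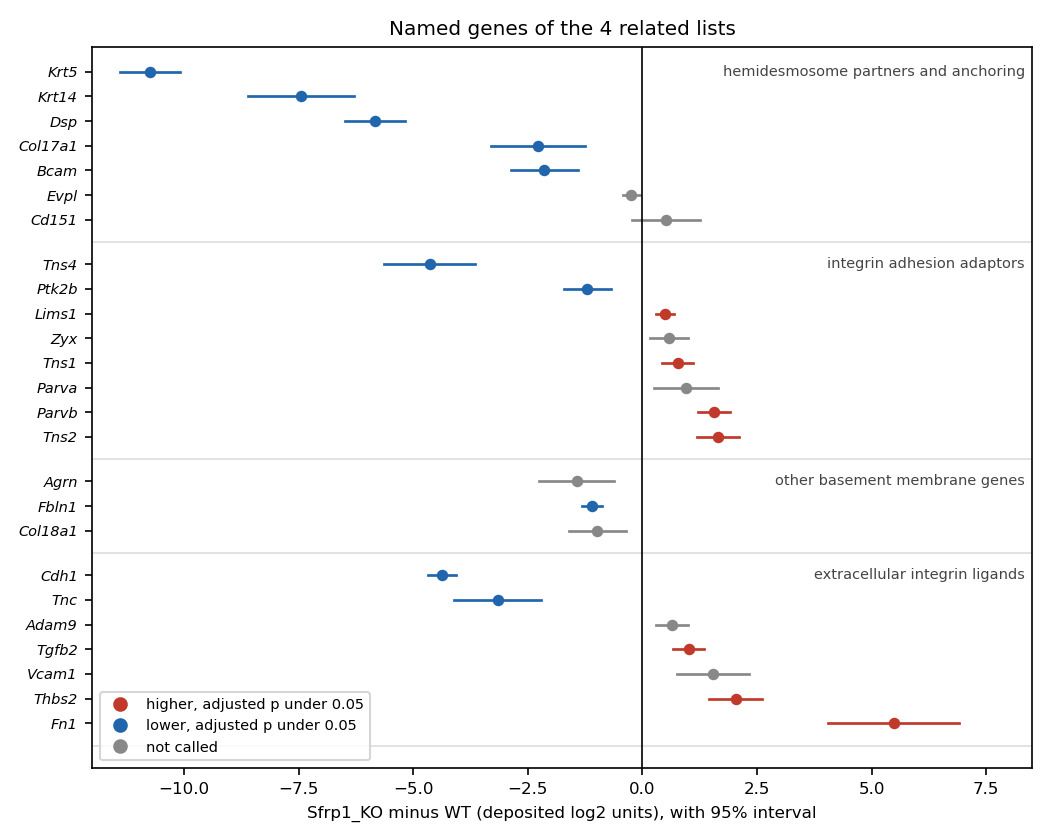
Difference of the named genes of the 4 related lists, Sfrp1_KO minus WT in deposited log2 units (x axis), with 95% intervals from limma; red and blue mark genes called higher and lower. Krt5 lies lowest at -10.74 and Fn1 highest at 5.49.

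Markers of cells that could accompany the sorted population were read beside these results. Of 13 fibroblast markers 3 rose (Pdgfrb, Thy1 and Col6a3), beside 1.83% of all genes, and none fell. The mean level of the 13 lay between 5.27 and 6.19 in WT and between 5.97 and 6.47 in Sfrp1_KO. On a WT array 8 to 11 were above background, and on each Sfrp1_KO array 8. Dcn, encoding decorin, was not called (difference 2.58). It read 6.5, 6.6 and 10.6 in WT and 10.2, 11.2 and 10.1 in Sfrp1_KO. Fbln2 was lower on each Sfrp1_KO array (-1.33, limma adjusted p = 0.0864) and under background there. Without overlap 1 marker was lower and 5 were higher, beside 10.8% and 9.1% of all genes. Lum, Dpt, Mfap5 and Col1a1 were highest on WT replicate 3 and not called. Pi16 and Fap, markers of fibroblast subsets, were under background on all arrays. Of 11 endothelial markers none was called by limma, 2 were higher at an unadjusted p under 0.05, and mean levels were 4.28 to 4.76 in WT and 4.45 to 4.63 in Sfrp1_KO, with 7 of the 11, among them Tek, Tie1 and Vwf, under background on every array. Flt1 was above background on 3 Sfrp1_KO arrays and no WT array (4.71 and 5.41, difference 0.70, limma adjusted p = 0.0817), and Cdh5, encoding VE-cadherin, read 4.22, 4.36 and 5.16 in WT and 7.15, 6.70 and 4.88 in Sfrp1_KO (difference 1.66, limma adjusted p = 0.264). Pecam1 was lower on every Sfrp1_KO array (-0.38, limma adjusted p = 0.385) and above background on 1 WT array. The median difference of the 11 was -0.125. Pecam1, Kdr, Emcn, Vwf and Plvap were highest on WT replicate 3. None of 10 pericyte and smooth muscle, 5 platelet, 8 melanocyte and Schwann cell, and 7 skeletal muscle markers was called by limma, with 0, 0, 1 and 0 higher and 2, 0, 0 and 0 lower at an unadjusted p under 0.05. Mean levels of these 4 lists were 4.62 to 4.85, 4.27 to 4.97, 4.31 to 4.58 and 4.39 to 4.55 in WT and 4.51 to 4.62, 4.26 to 4.35, 4.42 to 4.62 and 4.42 to 4.57 in Sfrp1_KO. The mean level of 11 basal keratinocyte markers lay between 9.65 and 10.25 in WT and between 5.47 and 5.62 in Sfrp1_KO, with 11 above background on each WT array and 6 to 10 on a Sfrp1_KO array; Krt5, Krt14 and Cdh1 also belong to the lists above. These are the same arrays on which Itga3, Itga6, Lama3 and Fermt1 fell. The part of these cells in the changes of integrins and laminins was not tested.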

How the data were processed

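Values are the log2 probe set signals that the authors deposited, computed by RMA, with Affymetrix Expression Console as the program, as named per the labels' processing notes from the submitters; the sources used here do not give versions, summarisation level or build. RMA equalises the arrays, which can hide a shift of most genes. Features with 1 platform symbol were named (30604 of 65956 clusters), symbols were updated through gene identifiers in RefSeq GRCm38.p6 (827 changed), and of 355 genes with several features the brightest was used, with no filter on dim genes. The comparison of WT and Sfrp1_KO used limma 3.58.1 under R 4.3.3 (lmFit, eBayes, 2-sided, Benjamini-Hochberg over 30142 genes). On simulated data it found 34 of 50 genes changed by 1 log2 unit and 50 of 50 changed by 4. Of all 188 calls there 11 were false. Spread was drawn independently for each gene, and changed genes lay above the median level. The simulation therefore does not cover shifts shared by genes of an array, or changed genes of low level. A bound ("at least") sets the mean of the brighter genotype against the mean background level of the other genotype's arrays. Within-array differences of 4 pairs of members had exact permutation tests, and the 2 pairs with a gene around background are not reported. The number of arrays limits the precision. Members, lists and pairs were chosen with earlier results of these data known. All 43 members were accounted for; values of every array are given for called members and for a fixed set of hemidesmosome, laminin, kindlin and partner genes, and values of Hspg2, Lama5, Lamb1 and Itga2 were added after they had been seen. From each related list the called genes and the 2 others with the smallest p were named. Among other genes, markers named outside these rules were picked with their values known. Alternatives were the replicate number as a block, removal of dim features, averaging the features of each gene, a further quantile normalization, array weights, trend and robust options, no moderation, a minimum difference of 1 log2 unit, all features tested, and each array left out.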

Additional observations from a re-analysis of the deposited data

How the results depend on the processing

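None of the 11 called members changed sign under any of the 14 settings tried for single genes, although 54 calls were lost and 18 gained over the 43 members. These kept signs are no test. The arrays of called members did not overlap, so leaving out or weighting an array could not turn them. Of the other settings, only the further quantile normalization changed the differences of members. With all 6 arrays 6 members were called higher and 5 lower by limma. Quantile normalization once more gave 10 higher, a minimum difference of 1 log2 unit gave 2 higher, and no moderation of variances gave 0 higher and 0 lower, with 12 and 7 at an unadjusted p under 0.05. Leaving out 1 array gave 3 to 6 higher and 0 to 7 lower. Over all genes 552 were called higher and 437 lower, against 892 higher with quantile normalization once more, 14 and 21 with no moderation, 295 and 244 with the minimum difference, and 191 to 487 and 100 to 407 with 1 array left out. With the replicate number as a block 5 members were higher and 1 lower, and 297 and 238 of all genes. Under that replicate block the calls of Itga10, Itga3, Itga6, Itgb5, Itgb6, Lama3 and Lamc1 were lost (limma adjusted p = 0.0577 to 0.112) and Itga5 (0.0262) and Lama5 (0.0196) were called. Deviations of samples with the same number correlated at 0.18, -0.122 and 0.171. WT replicates 1 and 2 correlated best with another number, and WT replicate 3 with its own. Deviations cancel out over the 3 arrays of a genotype, so these values cannot decide whether samples with the same number were processed together. Signs turned only among members that were not called. Array weights gave -0.0026 for Itga2b, -0.043 for Itgae and 0.024 for Itgb1, and quantile normalization once more 0.051 for Itgb1. With 1 array left out the differences ran from -0.020 to 0.046 for Fermt3, -0.015 to 0.034 for Itga2b, -0.064 to 0.014 for Itga4, -0.22 to 0.035 for Itga8, -0.012 to 0.104 for Itga9, -0.055 to 0.050 for Itgae, -0.0088 to 0.033 for Itgal, -0.080 to 0.113 for Itgav, -0.266 to 0.172 for Itgb1, -0.077 to 0.042 for Lama2, -0.0043 to 0.037 for Lamc3 and -0.077 to 0.186 for Plec. The cause of these shifts was not tested. Signal at background leaves only bounds for the genes marked "at least".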
